A study of Mus musculus with 6 samples.

Results

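The subject of this account is a set of 10 genes that control epithelial identity at the levels of splicing, transcription and surface proteolysis: Esrp1, Esrp2, Grhl2, Ovol1, Ovol2, Elf3, St14, Prss8, Spint1 and Spint2. They were taken by symbol from 23406 named genes, and where a symbol stood on several rows the row of the higher mean was used, which concerned Ovol1 alone. All 10 had a row. The cells were mouse embryonic fibroblasts carrying OSKM (the reprogramming factors Oct4, Sox2, Klf4 and Myc), sampled at day 7 of reprogramming and measured by RNA sequencing after removal of ribosomal RNA. KO cells had both Adar1 alleles floxed (Fl/Fl) and received 4-hydroxytamoxifen, 4OHT (n = 2), and WT cells had the same Fl/Fl alleles and received vehicle (n = 2). MUT cells paired a floxed allele with an E861A allele, which encodes an editing-dead enzyme, and received 4OHT (n = 1), and HET cells had the same Fl/E861A alleles and received vehicle (n = 1). Adar1 (symbol Adar) encodes a deaminase that turns adenosines of double-stranded RNA into inosines. 4OHT is commonly used to switch on an inducible Cre, and the labels name neither the Cre driver nor the deleted exons. Every cell with 4OHT also carries the floxed allele, and no library with 4OHT and an intact Adar1 was analysed here, so 4OHT or Cre and loss of Adar1 cannot be told apart. Whether replicates are separate cultures is not stated in the labels. The p-values therefore rest on a spread between libraries that may be technical.

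An early step of reprogramming is the mesenchymal-to-epithelial transition, in which fibroblasts take up an epithelial programme. ESRP1 and ESRP2 are RNA-binding proteins that select epithelial exons in many transcripts. GRHL2 activates genes of cell junctions, OVOL1 and OVOL2 are zinc-finger repressors that hold back mesenchymal factors such as ZEB1, and ELF3 is an ETS-family factor of epithelia. St14 encodes matriptase and Prss8 encodes prostasin, serine proteases of the epithelial surface that act in a common cascade. Spint1 and Spint2 encode their Kunitz-type inhibitors.

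Promoters are shown for the members that the promoter table held, and a shared control of them was not tested. The RefSeq promoter table (GRCm38.p6) held 4 of the 10 members, with 250 bases before and 50 bases after each start. Capitals mark CACCTG, an E-box of the kind bound by ZEB and SNAIL repressors, and AACCGG, part of the palindrome bound by grainyhead factors. Both strands were searched, so that CACCTG can read CAGGTG, and no match overlapped another. Each sequence runs 5′ to 3′ on the minus strand, except Spint1, which is on the plus strand.
Ovol2 (chr2:144331313-144331612): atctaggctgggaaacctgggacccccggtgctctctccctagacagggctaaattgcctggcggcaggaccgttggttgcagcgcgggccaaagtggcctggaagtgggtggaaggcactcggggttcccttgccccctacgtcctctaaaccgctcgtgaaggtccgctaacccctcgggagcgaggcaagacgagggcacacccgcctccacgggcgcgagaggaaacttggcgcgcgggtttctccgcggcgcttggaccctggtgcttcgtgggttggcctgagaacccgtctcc
Elf3 (chr1:135258423-135258722): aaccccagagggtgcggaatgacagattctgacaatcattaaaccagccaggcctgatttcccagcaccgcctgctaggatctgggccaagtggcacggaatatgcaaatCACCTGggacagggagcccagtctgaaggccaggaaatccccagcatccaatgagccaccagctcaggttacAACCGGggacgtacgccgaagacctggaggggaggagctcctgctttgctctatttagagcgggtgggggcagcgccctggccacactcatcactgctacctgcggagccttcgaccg
Spint1 (chr2:119237110-119237409): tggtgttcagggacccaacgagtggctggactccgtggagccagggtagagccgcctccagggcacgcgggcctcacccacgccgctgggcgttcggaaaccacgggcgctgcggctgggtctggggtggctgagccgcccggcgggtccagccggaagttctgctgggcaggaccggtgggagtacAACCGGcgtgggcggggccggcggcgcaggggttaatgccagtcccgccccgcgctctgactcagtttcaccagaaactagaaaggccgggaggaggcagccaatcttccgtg
Spint2 (chr7:29281928-29282227): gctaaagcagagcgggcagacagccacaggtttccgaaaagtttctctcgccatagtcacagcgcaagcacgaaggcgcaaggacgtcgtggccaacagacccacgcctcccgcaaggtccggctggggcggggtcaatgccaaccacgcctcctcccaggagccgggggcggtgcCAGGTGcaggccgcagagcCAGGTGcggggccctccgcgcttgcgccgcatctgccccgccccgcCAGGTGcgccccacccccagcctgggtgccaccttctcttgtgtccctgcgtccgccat
The Spint2 promoter held 3 E-boxes, the Elf3 promoter 1, and those of Ovol2 and Spint1 held 0. The Ovol2 window lies inside the annotated gene, whose 5′ end is at 144332146, so its count is for a start within the gene. Across 32851 promoter windows of the same length 20.2% held at least 1 E-box and 0.365% held 3 or more. AACCGG stood once each in Elf3 and Spint1, at 68 and 63 bases before the start, and 6.83% of all windows held it. These are matches of letters and not measured sites.

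Values are FPKM, fragments scaled to transcript length and library total, so levels can be compared between genes. The depth is not stated. The median of low values within a preset window was taken as 1 fragment. That gave 15800000 (MUT) to 19800000 (KO 1) fragments per library. The window bounds this estimate, so it and the fragments behind a gene estimated from it are rough. Differences were taken on log2(FPKM + 1), which understates the change of low genes, and tested with limma across the 12266 genes with at least 1 FPKM in at least 2 of the 6 libraries. Calls are at a Benjamini-Hochberg adjusted p under 0.05. Adar itself stood at 34.2 and 31.3 FPKM in KO, against 19.6 and 19.5 FPKM in WT, and at 33.0 FPKM in MUT, against 17.0 FPKM in HET. A level over the whole gene need not fall when only some exons are removed, so it is no check of the labels, and KO and MUT name the libraries labelled so.

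Of the 10 genes 9 were tested, and 8 of them fell in KO, while Esrp2 was not called and no member rose. Across all tested genes 28.2% were called lower in KO, 29.5% higher and 57.7% in either direction. In all 9 both KO libraries lay below both WT libraries, which held for 38.0% of all tested genes. The median log2 difference of the 9 members was -1.44, against 0.02 over all tested genes. Of the 9, 6 passed the filter on low values only through the vehicle libraries, so those had to differ, and the count is no support by itself. Esrp2, St14 and Spint2 were at 1 FPKM or more in all 6 libraries. With a pseudocount of 0.1 in place of 1 the differences of low genes were more than 1.5 times as large, at -4.91 for Esrp1, -3.68 for Grhl2, -3.18 for Elf3, -3.17 for Ovol2 and -2.36 for Prss8. In bulk RNA, fewer epithelial cells and less RNA per cell cannot be told apart.

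**Figure D1:**
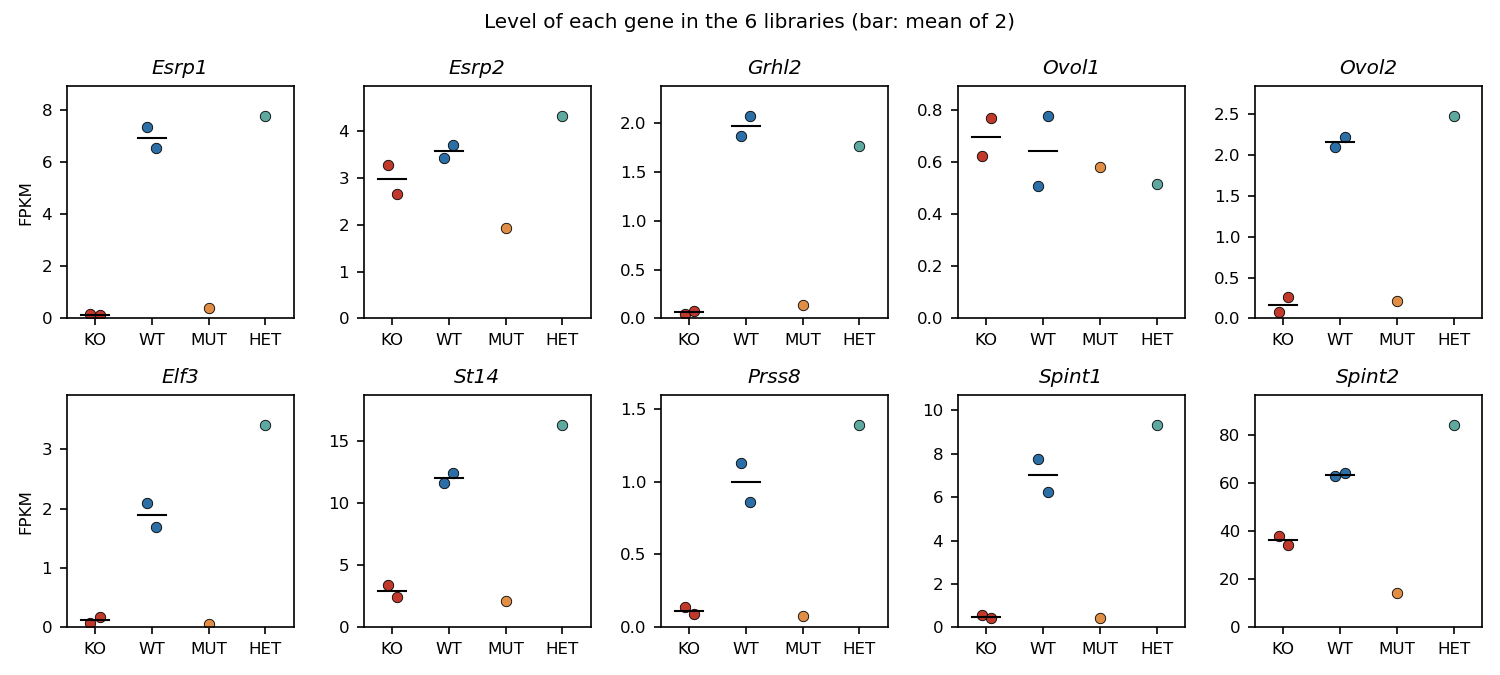
FPKM of each of the 10 genes (y axis, linear, its own scale in each panel) in the KO, WT, MUT and HET libraries, 1 point per library with a bar at the mean of the 2 replicates. The points of KO and MUT lie below those of WT and HET in 9 panels, and in the Ovol1 panel the groups overlap.

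Among the splicing regulators, Esrp1 fell to a few percent of its vehicle level and Esrp2 stayed measurable in every library. Esrp1 (ENSMUSG00000040728.15, chr4:11331933-11386783, minus strand, GRCm38) had 0.159 and 0.112 FPKM in KO, against 7.34 and 6.53 FPKM in WT, and 0.411 FPKM in MUT, against 7.75 FPKM in HET. The 3 vehicle libraries were all high and the groups did not overlap. The KO mean was 1.95% of the WT mean, a log2 difference of -2.80 (SE 0.12, limma adjusted p = 4.95e-08), and MUT held 5.30% of the HET level. The annotation places the gene model Gm26663 over part of Esrp1. Esrp2 (ENSMUSG00000084128.10, chr8:106130319-106136974, minus strand) had 3.29 and 2.65 FPKM in KO, against 3.43 and 3.71 FPKM in WT, and 1.92 FPKM in MUT, against 4.32 FPKM in HET. KO 1 and WT 1 lay close to each other, and MUT was the lowest library. The log2 difference of Esrp2 between KO and WT was -0.21 (95% interval -0.48 to 0.07, limma adjusted p = 0.177), so an unchanged level and a moderate fall are both within the interval.

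The balance of the ESRP pair therefore differed between the treatments. Esrp1 made up 4.60% and 4.05% of the summed Esrp1 and Esrp2 FPKM in KO, against 68.1% and 63.7% in WT. It made up 17.6% in MUT, against 64.2% in HET. Esrp1 was thus the more abundant gene of the pair in the 3 vehicle libraries and the scarcer one in the 3 libraries with 4OHT. In the annotation Esrp2 overlaps Nfatc3 and 1810019D21Rik, both on the opposite strand, and the use of strand is not given in the sources used here, so reads of the overlap may not be told apart. Nfatc3 stood at 11.5 and 13.4 FPKM in KO, against 11.7 and 12.6 FPKM in WT, and its part in the Esrp2 values was not tested.

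Exon choice cannot be read from values per gene, but the levels of genes with exons known to be switched by ESRP proteins can. Of 5 such genes with a row of their own, Cd44 and Fgfr2 rose in KO, Enah fell and 2 were not called. Cd44, a hyaluronan receptor, had 89.6 and 99.6 FPKM in KO, against 45.9 and 47.8 FPKM in WT (log2 difference 0.996, SE 0.098, limma adjusted p = 1.23e-05). Fgfr2, a fibroblast growth factor receptor, had 23.4 and 21.0 FPKM in KO, against 14.05 and 14.23 FPKM in WT. Enah, an actin regulator, had 20.2 and 19.9 FPKM in KO, against 29.1 and 29.6 FPKM in WT. The median log2 difference of the 5 was 0.16, and their share of calls is near the 57.7% of all tested genes called in either direction. Of 10 tested splicing regulators other than the ESRP pair, 3 rose in KO, Mbnl2, Mbnl1 and Celf2, and none fell, with a median log2 difference of 0.17. That share is near the 29.5% of all tested genes called higher. Calls in either direction were 3 in the main fit, 6 with a replicate block and 5 with quantile normalization. The muscleblind gene Mbnl2 had 76.9 and 77.8 FPKM in KO, against 40.6 and 46.2 FPKM in WT. The calls of Mbnl1 and Celf2 were both lost without WT 1 (limma adjusted p = 0.0991 and 0.0818), and only 1 of the 3 rises was then called.

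The transcription factors were low even in vehicle cells, and Grhl2, Ovol2 and Elf3 had an estimated 1.8 to 10 fragments per library with 4OHT. Grhl2 (ENSMUSG00000022286.16, chr15:37233036-37363569, plus strand) had 0.0460 and 0.0786 FPKM in KO, against 1.87 and 2.07 FPKM in WT, and 0.133 FPKM in MUT, against 1.77 FPKM in HET. All libraries with 4OHT were low and all vehicle libraries were high. The log2 difference of Grhl2 was -1.48 (SE 0.13, limma adjusted p = 6.37e-06).

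Ovol2 (ENSMUSG00000037279.13, chr2:144305175-144332146, minus strand) had 0.0754 and 0.258 FPKM in KO, against 2.101 and 2.215 FPKM in WT, and 0.211 FPKM in MUT, against 2.47 FPKM in HET. Its log2 difference in KO was -1.44 (SE 0.14, limma adjusted p = 1.07e-05), and the KO libraries differed from each other more than the WT libraries did. Elf3 (ENSMUSG00000003051.13, chr1:135253575-135258568, minus strand) had 0.0688 and 0.183 FPKM in KO, against 2.09 and 1.70 FPKM in WT, and 0.0607 FPKM in MUT, against 3.40 FPKM in HET. The log2 difference of Elf3 in KO was -1.36 (SE 0.14, limma adjusted p = 1.87e-05). HET was the highest library of Elf3, at 1.80 times the WT mean.

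Ovol1 (ENSMUSG00000024922.2, chr19:5549136-5560646, minus strand) was under 1 FPKM everywhere and was not tested. On the row of the higher mean it had 0.624 and 0.769 FPKM in KO, against 0.509 and 0.777 FPKM in WT, and 0.581 FPKM in MUT, against 0.515 FPKM in HET. The groups overlapped on that row. A further Ovol1 row of the same locus had 0.0945 and 0.0855 FPKM in KO, against 0.457 and 0.540 FPKM in WT, and 0.131 FPKM in MUT, against 0.489 FPKM in HET. On this row all libraries with 4OHT were below all vehicle libraries. With no filter on low values limma did not call the first row (log2 difference 0.05, adjusted p = 0.757), and it called the other row lower in KO (log2 difference -0.46, adjusted p = 0.00713), an alternative chosen after seeing the data. Both rows share their locus in the files with Ap5b1, and the files do not say what separates them, so no single direction is given for Ovol1.

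**Figure D2:**
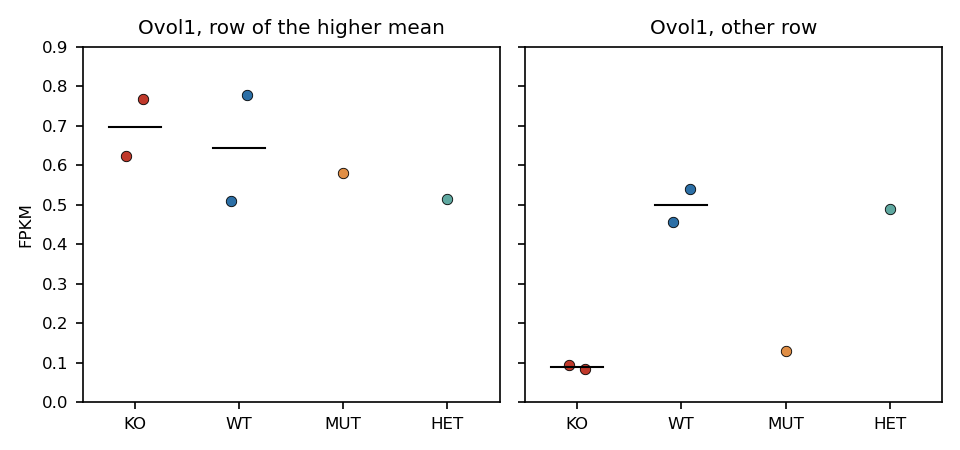
FPKM (y axis, linear) of the 2 rows named Ovol1 in the KO, WT, MUT and HET libraries, 1 point per library with a bar at the mean of the 2 replicates. On the row of the higher mean the groups overlap, and on the other row the highest KO or MUT point is at 0.131 FPKM and the lowest WT or HET point at 0.457 FPKM.

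Other epithelial factors and the factors that oppose them were read from lists. Of 5 tested epithelial transcription factors Tfap2c, Grhl3 and Grhl1 fell in KO. Klf5 rose (log2 difference 0.87) and Tfap2a was not called (-0.06), both named here after their values were seen. The median log2 difference of the 5 was -1.30. With no filter 7 genes of this list were called, and with the filter of 5 FPKM 2 were. Grhl1, a paralog of Grhl2, had 0.151 and 0.105 FPKM in KO, against 1.61 and 1.96 FPKM in WT. Grhl3, the other paralog, had 0.506 and 0.335 FPKM in KO, against 3.92 and 3.94 FPKM in WT. All 3 grainyhead-like genes were lower in KO. These genes and Tfap2c passed the filter on low values only through the vehicle libraries. Their fall was largely set by the filter and is no support by itself. Of 6 factors known to repress epithelial genes 4 rose in KO and 2 fell, with a median log2 difference of 0.29, against 29.5% higher and 28.2% lower among all tested genes. Of the 6, 4 were called with no filter on low values and likewise without KO 1, without WT 1 or without WT 2, and 5 without KO 2 or with quantile normalization. Zeb2 had 10.8 and 11.9 FPKM in KO, against 4.88 and 5.55 FPKM in WT, and Twist2 rose by 0.71 on the log2 scale, while Snai1 fell by 0.95. Twist1, named after its values were seen, was the other that fell, by 0.42. In the other background, with 1 library each, Snai1 stood at 20.6 FPKM in MUT, against 21.6 FPKM in HET. Twist1 was higher there, at 94.8 FPKM in MUT, against 73.6 FPKM in HET. The 4 that rose in KO were also higher in MUT than in HET. All 6 genes listed as related targets of GRHL2 and OVOL factors (Cdh1, Epcam, Cldn3, Cldn4, Cldn6 and Rab25) fell in KO, against 28.2% of all tested genes, with a median log2 difference of -2.50. Rab25 and Cldn3 passed the filter on low values only through the vehicle libraries. Their fall was largely set by the filter, so the count is no support by itself. Cldn4, a tight junction claudin, had 3.25 and 3.05 FPKM in KO, against 18.5 and 19.0 FPKM in WT. Earlier results of these data were known when these lists were drawn up, so they are no independent evidence of a direction.

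St14 (ENSMUSG00000031995.9, chr9:31089402-31131853, minus strand) was the more abundant protease. It had 3.42 and 2.47 FPKM in KO, against 11.6 and 12.5 FPKM in WT, and 2.14 FPKM in MUT, against 16.3 FPKM in HET. The KO mean was 24.5% of the WT mean, a log2 difference of -1.73 (SE 0.13, limma adjusted p = 1.75e-06), so matriptase RNA was lowered but stayed measurable in every library. Prss8 (ENSMUSG00000030800.10, chr7:127925716-127930104, minus strand) had 0.138 and 0.0890 FPKM in KO, against 1.13 and 0.862 FPKM in WT, and 0.0770 FPKM in MUT, against 1.39 FPKM in HET. Its log2 difference was -0.84 (SE 0.14, limma adjusted p = 0.000592), and an estimated 2.0 to 4.5 fragments stood behind each value with 4OHT. The Prss8 call was lost with quantile normalization (adjusted p = 0.0692, within a range of 0.000112 to 0.0692 over its alternatives). Its neighbour Kat8 overlaps it on the opposite strand and stood at 14.7 and 14.4 FPKM in KO, against 15.3 and 14.8 FPKM in WT. None of 8 other membrane serine proteases reached the filter, and together they stood at 0.733 and 0.701 FPKM in KO, against 1.01 and 1.32 FPKM in WT.

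The inhibitors fell unequally. Spint1 (ENSMUSG00000027315.13, chr2:119237362-119249527, plus strand) had 0.566 and 0.420 FPKM in KO, against 7.76 and 6.22 FPKM in WT, and 0.424 FPKM in MUT, against 9.30 FPKM in HET. Its KO mean was 7.05% of the WT mean (log2 difference -2.42, SE 0.13, limma adjusted p = 2.16e-07). Spint2 (ENSMUSG00000074227.12, chr7:29256323-29281912, minus strand) was by far the most abundant of the 10 genes, with 37.9 and 34.3 FPKM in KO, against 62.8 and 64.0 FPKM in WT. In MUT it had 14.3 FPKM, against 83.9 FPKM in HET. Its KO mean was 56.9% of the WT mean (log2 difference -0.80, SE 0.10, limma adjusted p = 5.58e-05), and its MUT level was 17.1% of HET. Spint1 made up 1.47% and 1.21% of the summed inhibitor FPKM in KO, against 11% and 8.86% in WT, and 2.87% in MUT, against 9.98% in HET.

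St14 was also set against its inhibitors. The ratio of St14 to the sum of Spint1 and Spint2 FPKM was 0.0889 and 0.0710 in KO, against 0.165 and 0.177 in WT, and 0.145 in MUT, against 0.174 in HET. Both KO libraries had less matriptase RNA per inhibitor RNA than any other library, and MUT lay between them and the 3 vehicle libraries. Over treatments the ratio averaged 0.102 ± 0.0386 with 4OHT and 0.172 ± 0.00664 with vehicle (SD, n = 3 each). An exact two-sided permutation test gave p = 0.1, the smallest this design allows. The place of MUT depended on the pseudocount, since with 1 added to each sum it lay above the 3 vehicle libraries. The exact p was then 0.4, within a range of 0.1 to 0.4 over the alternatives.

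**Figure D3:**
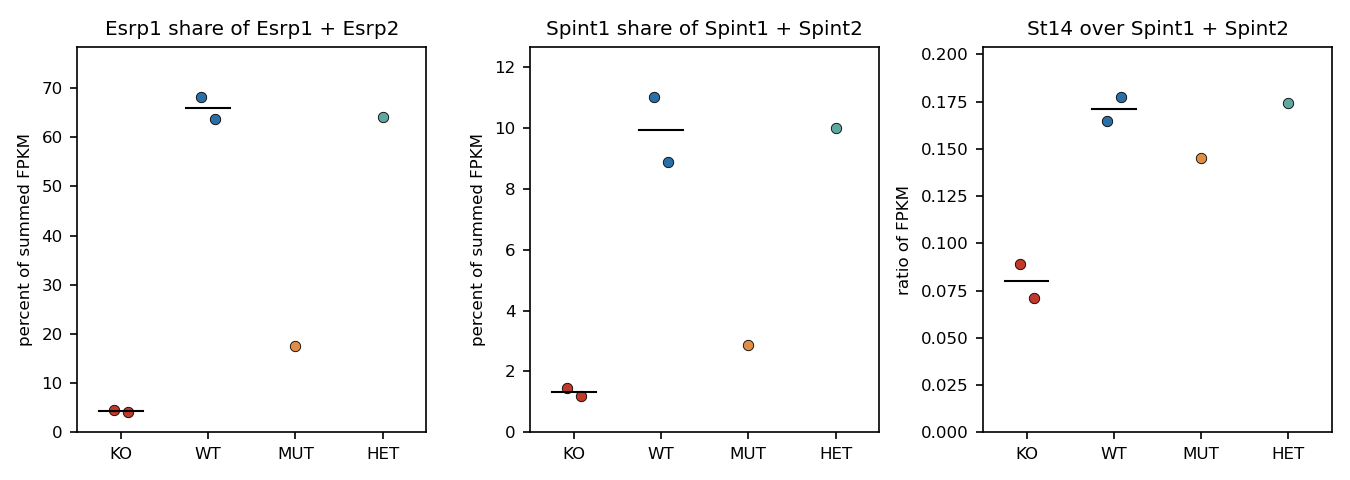
Esrp1 as a percent of summed Esrp1 and Esrp2 FPKM, Spint1 as a percent of summed Spint1 and Spint2 FPKM, and the ratio of St14 to summed Spint1 and Spint2 FPKM (y axes, linear) in the KO, WT, MUT and HET libraries, with a bar at the mean of the 2 replicates. Both shares are lower in KO and MUT than in WT and HET, and the ratio is lowest in KO, at 0.0889 and 0.0710.

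Of 6 tested substrates and partners of these proteases, Plaur and Plau rose in KO, F2rl1 and Cldn7 fell and 2 were not called, with a median log2 difference of 0.11. These shares are near those of all tested genes, of which 29.5% were called higher and 28.2% lower. F2rl1 encodes the receptor PAR2, which matriptase can activate, and had 2.17 and 0.622 FPKM in KO, against 20.7 and 18.6 FPKM in WT. Cldn7, a claudin, had 0.378 and 0.511 FPKM in KO, against 3.64 and 2.50 FPKM in WT. Cldn7 passed the filter on low values only through the vehicle libraries, so its fall was largely set by the filter. Plaur, the urokinase receptor, had 118 and 119 FPKM in KO, against 46.3 and 42.2 FPKM in WT. In MUT Plaur had 55.8 FPKM, against 36.5 FPKM in HET (1 library each). That is a log2 difference of 0.60, against 1.40 for KO minus WT. Plau, the urokinase gene, was named after its values were seen and rose by a log2 difference of 0.31.

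The pair of MUT and HET has 1 library on each side and is given without a test. All 9 tested members were lower in MUT, and 8 of them by a log2 difference of 1 or more (2-fold), with Esrp2 at -0.86. Over all tested genes 8.77% were at least 2-fold lower in MUT. The median log2 difference of the members was -2.05, against 0.01 over all tested genes. For the 6 members that passed the filter only through vehicle libraries, a lower MUT value was largely set by the filter. The count and the median are therefore no support by themselves. The log2 differences were -2.85 for Spint1, -2.63 for Esrp1, -2.47 for Spint2, -2.46 for St14 and -2.05 for Elf3. With no pseudocount the order is another one, since Elf3 in MUT was at 1.78% of its HET level, Spint1 at 4.56%, Esrp1 at 5.30%, Prss8 at 5.56%, St14 at 13.2% and Spint2 at 17.1%.

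**Figure D4:**
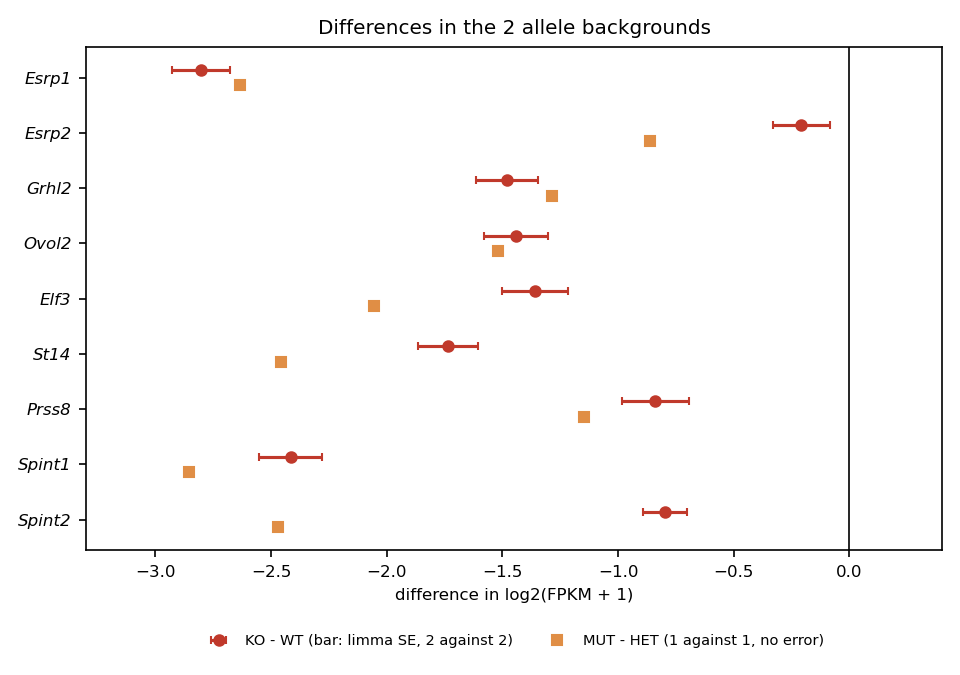
Difference in log2(FPKM + 1) (x axis) of the 9 tested members (rows) for KO minus WT, with limma SE from 2 against 2 libraries, and for MUT minus HET, with 1 library each and no error. All points lie left of 0, and the pairs of points lie farthest apart for Spint2, at -0.80 and -2.47.

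Whether the fall differed between the allele backgrounds was tested for the difference of the MUT and KO effects, where the lone MUT and HET libraries were assumed to vary like the replicates. Spint2 was the 1 member called among 9, with a more negative effect in MUT. Of all tested genes 4.01% were called, 0.946% with a lower and 3.07% with a higher effect in MUT. The effects of Spint2 differed by -1.67 in log2 (SE 0.17, 95% interval -2.05 to -1.30, limma adjusted p = 0.000784). The difference had a part from each treatment: Spint2 in MUT was below KO by a log2 difference of -1.27, and in HET it was above WT by 0.40. The adjusted p was 0.117 when low values were not filtered, within a range of 1.28e-16 to 0.117 over its alternatives.

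St14, Elf3 and Esrp2 also had more negative effects in MUT, by log2 differences of -0.72, -0.69 and -0.66, but did not pass (limma adjusted p = 0.123, 0.167 and 0.14). Without KO 2 the spread comes from the 2 WT libraries alone, and in that fit St14 and Esrp2 were called as well (adjusted p = 0.00332 and 0.0459, within ranges of 0.00332 to 0.338 and 0.0459 to 0.296 over their alternatives). For Esrp1, Grhl2 and Ovol2 the differences of effects were 0.17, 0.19 and -0.08, with 95% intervals of -0.30 to 0.64, -0.32 to 0.71 and -0.61 to 0.45. For Prss8 and Spint1 they were -0.31 and -0.44 (limma adjusted p = 0.572 and 0.37). For genes this low the size depends on the pseudocount. With 0.1 in place of 1 the differences were 0.96 for Esrp1, 0.68 for Grhl2, 0.12 for Ovol2, -1.26 for Elf3 and -0.71 for Prss8, and none of these 5 was called (limma adjusted p = 0.233, 0.609, 0.949, 0.34 and 0.645).

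Over both backgrounds 4OHT was set against vehicle with the background as a term. It shares the 4 KO and WT libraries with the comparison of KO with WT. All 9 tested members fell and none rose. Of all tested genes 28.2% were called lower, 29.2% higher and 57.4% in either direction. In each of the 9, all 3 libraries with 4OHT lay below all 3 vehicle libraries, which held for 29.3% of all tested genes. Here too, 6 of the 9 passed the filter on low values only through the vehicle libraries. For those a fall was largely set by the filter, and these counts are no support by themselves. Esrp1 had a log2 difference of -2.75 (SE 0.11, limma adjusted p = 9.12e-07) and Spint1 one of -2.56 (SE 0.14, limma adjusted p = 2.9e-06). The Spint2 difference was -1.35 with the larger SE of 0.29 (limma adjusted p = 0.00383), and it was -0.80 without MUT or without HET, where the KO and WT libraries alone give the value. Those of the other tested members besides Esrp2 lay between -1.98 for St14 and -0.94 for Prss8. Esrp2 had the smallest difference, -0.43 (SE 0.15, limma adjusted p = 0.0391). Its call was lost in 8 of 12 alternatives, among them without WT 2 (adjusted p = 0.0734), without KO 2 (0.0885), without MUT (0.175) and without HET (0.181), with a highest value of 0.197. Without MUT or HET its difference was -0.21.

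**Figure D5:**
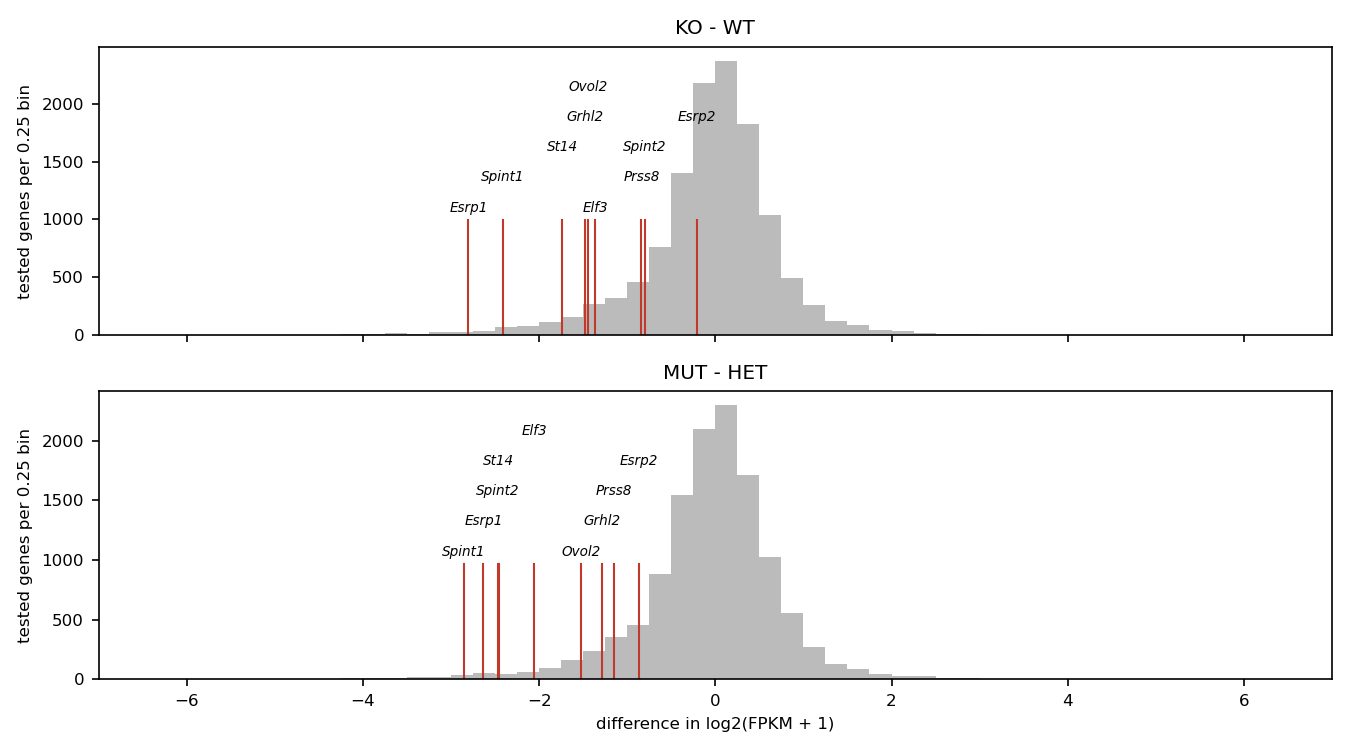
Histograms of the difference in log2(FPKM + 1) over 12266 tested genes (x axis, bins of 0.25, y axis genes per bin) for KO minus WT above and MUT minus HET below, with a line at each of the 9 tested members. Esrp1 and Spint1 stand farthest left in both, and Esrp2 stands nearest to 0 in both.

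Among the vehicle libraries, 8 of the 9 tested members were higher in HET than in both WT libraries, against 41.8% of all tested genes. Grhl2 was the exception, at 1.77 FPKM in HET, below both WT libraries as were 39.1% of all tested genes. Elf3, Prss8, St14, Spint1 and Spint2 in HET were at 1.80, 1.39, 1.35, 1.33 and 1.32 times the WT mean FPKM. With 4OHT, 5 of the 9 were lower in MUT than in both KO libraries, against 44.7% of all tested genes. Esrp1 and Grhl2 were higher in MUT than in both KO libraries, at 3.03 and 2.14 times the KO mean FPKM, against 34.6% of all tested genes. Each of these sets 1 library against 2 and was not tested.

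Ordered by mean FPKM over WT, Spint2 led with 63.4 ± 0.86 FPKM (SD, n = 2), followed by St14 with 12.04 ± 0.59. Spint1 with 6.99 ± 1.09 and Esrp1 with 6.93 ± 0.57 did not differ beyond their spread. Esrp2 stood at 3.57 ± 0.20, and Ovol2, Grhl2 and Elf3 lay close together at 2.16 ± 0.08, 1.97 ± 0.14 and 1.89 ± 0.28. Prss8 and Ovol1 were lowest, at 0.996 ± 0.19 and 0.643 ± 0.19. In KO the order changed below Spint2, where Esrp2 at 2.97 ± 0.45 and St14 at 2.94 ± 0.67 stood together and each other member averaged at most 0.697 FPKM.

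The genes of most similar profile over the 6 libraries were taken by Euclidean distance between centred log2(FPKM + 1) values, among 9003 other tested genes that averaged 5 FPKM or more. For Esrp1 they were Apela, Car2 and Jarid2, at distances of 0.18, 0.22 and 0.23. For St14 they were Hmces, Spry4 and Crmp1, at distances of 0.32, 0.34 and 0.35. These are descriptions over 6 libraries of 2 treatments.

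The tested pluripotent, epithelial and keratinocyte markers fell with these genes, while fibroblast and endothelial markers were mixed. Of all tested genes 28.2% were called lower in KO. All 6 pluripotent cell markers fell in KO, with a summed level of 20.8 and 7.51 FPKM in KO, against 572 and 459 FPKM in WT, and 41.3 FPKM in MUT, against 598 FPKM in HET. All 6 epithelial markers fell, summing to 13.6 and 12.2 FPKM in KO, against 137 and 152 FPKM in WT, and to 14.1 FPKM in MUT, against 183 FPKM in HET. Cdh1, Epcam, Cldn3 and Cldn4 among them were also listed above as related targets of GRHL2 and OVOL factors, so the counts overlap. Of 5 keratinocyte markers 3 were tested and fell, summing to 32.6 and 33.2 FPKM in KO, against 127 and 130 FPKM in WT, and to 16.0 FPKM in MUT, against 177 FPKM in HET, while Krt5 was at most 0.216 FPKM. Fibroblast markers were present throughout, with 1 of 8 higher and 5 lower in KO, at 3397 and 3309 FPKM summed in KO, against 5712 and 5273 FPKM in WT, and 4375 FPKM in MUT, against 5204 FPKM in HET. Of 5 endothelial markers 1 rose and 3 fell, with sums of 5.40 and 5.37 FPKM in KO, against 6.03 and 5.90 FPKM in WT, and 4.93 FPKM in MUT, against 7.69 FPKM in HET. Cdh5 was at most 0.0539 FPKM, and 3 macrophage markers with rows of their own summed to at most 1.58 FPKM, with no member tested. Nanog, Zfp42, Cldn3 and Pecam1 passed the filter on low values only through the vehicle libraries, and Kdr, the endothelial marker that rose, only through those with 4OHT. For these markers the direction was largely set by the filter. The part of these cell types in the levels of the 10 genes was not tested.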

How the data were processed

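Gene values were deposited by the authors as FPKM, per the file headers, with decimal commas. Cufflinks 2.2.1, Bowtie2 2.3.0 and TopHat2 2.1.1 were used, with GRCm38 and mm10 as builds, per the submitters' processing notes. Their roles, gene models, strand and scaling were not given in the sources used here. Groups came from the sample titles. Each file has 24879 rows in a shared order, of which 1021 without a gene name (8.26% to 14.2% of a library's FPKM) were left out. Rows naming several genes (561) were kept as they stand.

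Tests were run on log2(FPKM + 1) in R 4.3.3 using limma 3.58.1 (eBayes with trend, two-sided, adjusted over 12266 genes), and the code was tested on simulated data. KO against WT used 4 libraries, the difference of effects used 4 group means, and 4OHT against vehicle used treatment and background. Fragments were estimated from the median of low values within a preset window and from transcript lengths, taking 200 bases a fragment. Gene coordinates are GENCODE's on GRCm38.

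The members and lists were chosen with earlier results of these data known. All 10 members are named. Of each list of related genes, up to 3 with the smallest p in KO against WT are named, and others where stated. Alternatives were the pseudocount, the filter, scaling, a replicate block, a shared spread and leaving out each library. Across genes, KO 1 and KO 2 correlated at a Pearson r of 0.995, as did WT 1 and WT 2.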

Additional observations from a re-analysis of the deposited data

Results flagged for a closer look

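The difference between the MUT and KO effects on Spint2 was called in the test of that difference (log2 difference of effects -1.67, SE 0.17, adjusted p by limma = 0.000784). Spint2 was lower in the library with 4OHT than in its vehicle counterpart in both backgrounds, and the fall was larger in MUT than in KO. The result rests on 1 MUT library, at 14.3 FPKM, and 1 HET library, at 83.9 FPKM. The call was lost when low values were not filtered.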

How the results depend on the processing

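Of 300 differences of single members under alternatives, 285 kept their direction and their side of the threshold, 11 lost a call, 2 gained one and 2 turned round. Those that turned were the Ovol2 difference between the MUT and KO effects, never called, at 0.12 with a pseudocount of 0.1 and between -0.19 and 0.034 over the fits that leave out a replicate, the highest without KO 2. In KO against WT, 7 to 9 members were called under every alternative except the stricter filter of 5 FPKM, where 4 of the 4 members left were called. That filter likewise left 4 called members for 4OHT against vehicle, 4 at least 2-fold lower in MUT than in HET and 4 higher in HET than in WT, since fewer genes were tested. For the difference of the MUT and KO effects, limma called 0 members with no filter on low values, 0 also with the other Ovol1 row in its place, with 3 at an unadjusted p under 0.05 in each case. Leaving out each KO or WT library gave 1 to 3 members for that difference, with 3 without KO 2, and it could not be fitted without MUT or HET. The cause was not tested. Leaving out each library gave a ratio difference of St14 to its inhibitors of -0.092 to -0.055. The replicate numbers of KO and WT correlated at 0.18 in their deviations from the group means, over 2 pairs only, and were not taken as pairing. With a replicate block 8 members were called in KO against WT and 8 for 4OHT against vehicle, and Esrp2 was the call lost (adjusted p = 0.0742). Median-of-ratios and quantile scaling moved the median of all genes by less than 0.05 in log2. At an estimated few fragments per value, the levels of Grhl2, Ovol2, Elf3 and Prss8 with 4OHT are imprecise.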
